A study of Mus musculus with 90 samples.

Results

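Dexamethasone (dex), a synthetic agonist of the glucocorticoid receptor (GR), was compared with vehicle in the livers of fed mice, over all genes and in both directions. The comparison takes 8 of the 90 samples of the series: 4 mice that received dex (fed DEX) and 4 that received phosphate-buffered saline (fed PBS, here vehicle), each sample being the liver RNA of a single mouse after poly(A) enrichment. All 8 were wild-type male C57BL/6N mice of 10 weeks, kept in a light–dark cycle and trained for 4 days to night-restricted feeding (NRF), in which chow is present in the dark period only. Dex at 1 mg/kg or vehicle was injected into the peritoneum 30 minutes before lights off (zeitgeber time, ZT, 12), food was given at ZT12, and livers were taken after 2 hours of food, at ZT14. In each group, replicates 1 to 3 carry neighbouring library numbers and replicate 4 carries a number from a separate run of numbers, here called the second library series. Other groups of 4 enter where named: unfed PBS mice, fed mice given S961 (a peptide antagonist of the insulin receptor) alone (fed S961) or with dex (fed DEX S961), all wild type and treated at the same hours, and unfed GR fl/fl mice whose hepatocytes received Cre (AAV-CRE, loss of GR) or GFP (AAV-GFP) from a viral vector with the liver-specific Tbg promoter.

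Glucocorticoids enter cells and bind GR, which moves to the nucleus and binds DNA at glucocorticoid response elements (GREs), either raising transcription from nearby genes or lowering it. In the liver GR is known for raising enzymes of glucose production and of amino acid breakdown in fasting, and for restraining inflammation. Corticosterone, the natural ligand in mice, peaks around the start of the active phase, so that dex given before the meal keeps a GR agonist present while food and insulin arrive.

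RNA amounts were given as RPKM (read numbers scaled to transcript length and to the total reads of the library), and 11251 genes that averaged 0.5 RPKM or more across the 20 injected mice were tested with limma on log2(RPKM + 0.5). On that scale fold changes of low genes are understated. The 8 libraries differed up to about 2-fold in depth: relative to vehicle mouse 1, the vehicle libraries held 0.78 to 1.06 times as many reads and the dex libraries 0.549 to 0.918 times, dex mouse 2 being the shallowest. Defining hepatocyte genes such as Alb were abundant in all 8 livers, with a summed level of the 5 hepatocyte markers of 45197 to 61246 RPKM in vehicle mice and 44673 to 75453 RPKM in dex mice.

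At an adjusted p (Benjamini-Hochberg) under 0.05, dex raised 113 genes (1.00% of those tested) and lowered 246 (2.19%). Of the raised genes 54 changed more than 2-fold, and of the lowered genes 38. The median change was a log2 fold change of 0.98 for the raised genes and −0.69 for the lowered ones, against −0.10 over all genes tested. In 103 of the 113 raised genes every dex mouse lay above every vehicle mouse, a pattern seen in 267 genes in all (2.37%), and in 221 of the 246 lowered genes every dex mouse lay below, as in 917 genes in all (8.15%). The raised genes were expressed at a median of 14.2 RPKM and the lowered genes at 6.29 RPKM.

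The number of lowered genes depended on how the libraries were scaled, the number of raised genes less so. With RPKM as deposited 31.5% of the called genes were raised. After median-ratio scaling the split was 153 raised and 107 lowered, 58.8% raised, and after quantile normalization 159 and 122, 56.6% raised. All 113 raised genes kept their call under median-ratio scaling, but 107 of the 246 lowered genes did. In the dex libraries the 10 most abundant genes took 23.2% to 27.6% of all RPKM, and in the vehicle libraries 22.5% to 25%. Within the first library series alone, 3 mice against 3, 233 genes were raised and 587 lowered. A term for the library series in the fit of all mice gave 264 raised and 832 lowered. The second series holds 1 mouse per group and allows no test. There 109 of the 113 raised and 235 of the 246 lowered genes differed in the same direction as in the fit of all mice. So did 7987 of all 11251 genes tested. The mice of this series are part of the fit that called the genes, so these counts are no check of the calls. Single libraries also moved the counts: the raised genes numbered 75 without dex mouse 1 and 72 without dex mouse 2, and the lowered genes numbered 157 without vehicle mouse 1, 114 without vehicle mouse 2, 90 without dex mouse 1 and 86 without dex mouse 2. Of 67 called genes chosen for naming, 43 kept their call in all 8 fits that left out 1 library. The most were lost without dex mouse 2 (23), vehicle mouse 2 (21), dex mouse 1 (20) and vehicle mouse 1 (16), and the fewest without dex mouse 4 (2). Cyp2a4 was the 1 raised gene that reached the filter on low values only through the fed DEX mice, and Cd300e the 1 lowered gene that did so only through the fed PBS mice, so their calls are no support for a change. The other mice in that check include the fed DEX S961 mice, which also received dex. Gm10684, named below, reached the filter only through these 2 groups given dex. Cxcl11, also named below, reached it only through the fed PBS and fed S961 mice, the fed groups not given dex.

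**Figure D1:**
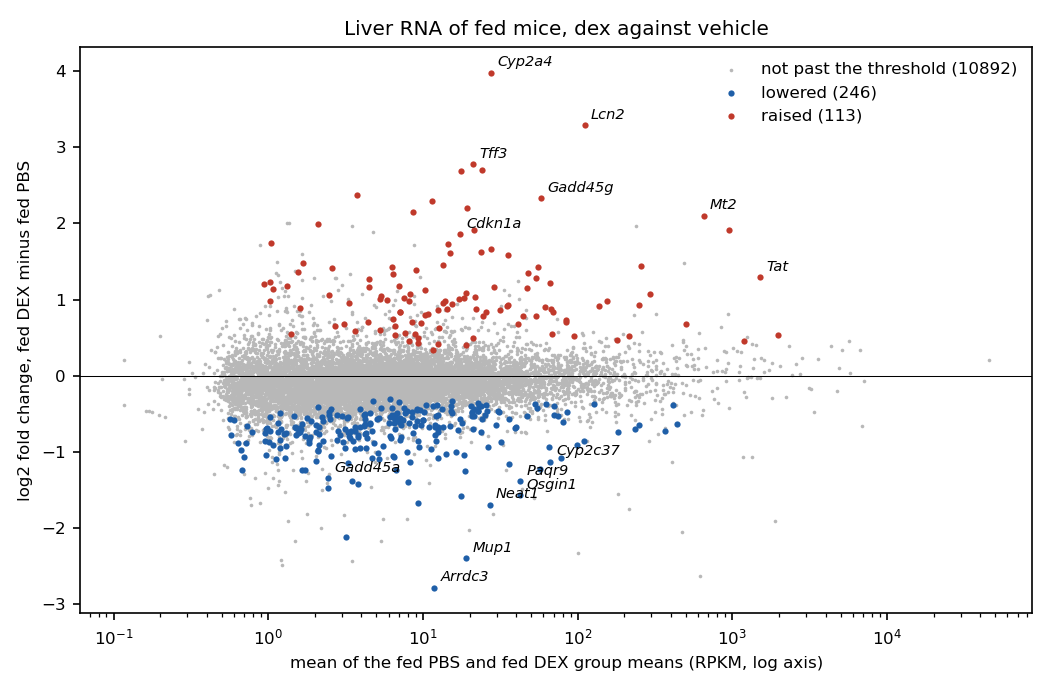
Change of each of the 11251 genes tested with dex in fed mice. The horizontal axis gives the mean level (RPKM, log axis), the vertical axis the log2 fold change of fed DEX minus fed PBS; red points are the 113 raised genes, blue points the 246 lowered genes and grey points all others. Raised genes reach higher levels and larger changes than lowered genes, with Lcn2 and Cyp2a4 at the top and Arrdc3 and Mup1 at the bottom.

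The largest rises past the threshold, among genes whose groups did not overlap, included Lcn2, Igfbp1 and Tff3, whose products are secreted. Lcn2 (chr2:32240153-32243317, minus strand, mm9), which encodes the iron-siderophore carrier lipocalin-2, was at 14.3, 11.9, 61.6 and 11.8 RPKM in vehicle mice 1 to 4 and at 231, 243, 200.5 and 112 RPKM in dex mice 1 to 4. Every dex liver thus held more Lcn2 RNA than the highest vehicle liver, that of mouse 3, and the rise was 3.29 on the log2 scale (SE 0.64, adjusted p = 0.007). Igfbp1 (chr11:7097785-7102549, plus strand), whose product binds insulin-like growth factors and which insulin normally represses, was at 3.69, 3.28, 6.80 and 11.2 RPKM with vehicle and at 65.8, 42.9, 32.0 and 25.6 RPKM with dex. It rose by 2.70 (SE 0.56, adjusted p = 0.01) in livers that had been exposed to a meal. Tff3, a trefoil peptide of mucous epithelia, was at 2.05, 5.59, 2.99 and 4.55 RPKM with vehicle and at 77.9, 38.4, 32.4 and 5.59 RPKM with dex, so that dex mouse 4 stood at the level of the highest vehicle mouse. Its call (log2 2.78, SE 0.66, adjusted p = 0.025) was lost in 5 of the 8 fits that left out 1 library, those without vehicle mouse 1 or 3 or dex mouse 1, 2 or 3, where the adjusted p reached 0.1.

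Ddit4, Cdkn1a, Gadd45g and Gadd45b were also among the 20 largest rises. Ddit4 (chr10:59412423-59414518, minus strand), an inhibitor of the growth kinase complex mTORC1, had 3.83, 2.61, 5.46 and 6.13 RPKM with vehicle and 32.9, 30.2, 27.4 and 32.2 RPKM with dex. Its 4 dex mice were nearly level, and it had the lowest adjusted p of the named rises together with Phf11c (8.4e-05; log2 2.70, SE 0.29). Cdkn1a (chr17:29227924-29237667, plus strand), the cell cycle inhibitor p21, was at 7.80, 3.62, 9.87 and 8.70 RPKM with vehicle and at 29.4, 33.4, 25.7 and 20.9 RPKM with dex, a rise of 1.86 (SE 0.34, adjusted p = 0.0047). The stress genes Gadd45g (log2 2.33, SE 0.48, adjusted p = 0.011) and Gadd45b (log2 2.37, SE 0.47, adjusted p = 0.0085) rose while their family member Gadd45a fell. Gadd45g went from 16.0, 33.3, 33.1 and 5.76 RPKM to 101, 102, 88.7 and 81.8 RPKM, and Gadd45b from 0.604, 0.386, 1.52 and 1.21 RPKM to 7.97, 5.74, 5.72 and 6.85 RPKM. In contrast, Gadd45a was at 2.08, 5.75, 4.06 and 3.03 RPKM with vehicle and at 1.21, 1.52, 0.607 and 1.13 RPKM with dex, a log2 change of −1.34 (SE 0.26, adjusted p = 0.0077). All 3 directions were the same after median-ratio scaling. An annotated antisense gene covers 19.1% of the Gadd45a exon bases, and whether the counting used strand is not given in the sources used here.

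Sgk1, Dusp1 and Bcl2l1 were among them as well. Sgk1, a kinase named for its induction by serum and glucocorticoids, was at 10.5, 10.0, 8.99 and 4.36 RPKM with vehicle and at 57.8, 31.2, 28.9 and 19.6 RPKM with dex (log2 1.92, SE 0.28, adjusted p = 0.00076). Dusp1, a phosphatase that switches off MAP kinases, rose from 9.17, 15.1, 10.3 and 19.0 RPKM to 40.3, 42.3, 38.9 and 46.5 RPKM (log2 1.67, SE 0.24, adjusted p = 0.00077). Bcl2l1, which encodes the survival protein Bcl-xL, went from 10.4, 12.3, 12.2 and 10.3 RPKM to 40.9, 30.9, 36.2 and 35.7 RPKM (log2 1.62, SE 0.20, adjusted p = 0.00019). Within each of these groups the dex mice stood well apart from the vehicle mice. Fam107a, a gene of the actin cytoskeleton, rose from a mean of 6.72 ± 2.97 to 32.0 ± 10.9 RPKM (SD, n = 4 each; log2 2.21, adjusted p = 0.00011).

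The metallothioneins, small metal-binding proteins, had the highest levels among the 20 largest rises. Mt2 (chr8:96696518-96697467, plus strand) was at 139, 175, 488 and 232 RPKM with vehicle and at 1292, 1322, 1042 and 532 RPKM with dex (log2 2.10, SE 0.44, adjusted p = 0.012). Mt1, which lies beside it on chromosome 8 and resembles it in sequence, so that reads may be shared, was at 191, 249, 735 and 539 RPKM with vehicle and at 1855, 1889, 1451 and 743 RPKM with dex (log2 1.91, adjusted p = 0.017). In both genes vehicle mouse 3 and dex mouse 4 came closest to each other. Leaving out dex mouse 1 or 2 ended both calls, and leaving out vehicle mouse 1 or 2 ended that of Mt1; the highest adjusted p was 0.053 for Mt2 and 0.068 for Mt1.

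The remaining large rises came in part from symbols that overlap or may share reads. Setdb2, a gene of the histone methyltransferase family, rose from 7.62, 5.33, 6.01 and 8.13 RPKM to 29.4, 12.4, 17.6 and 32.4 RPKM (log2 1.61, SE 0.24, adjusted p = 0.0012). Phf11c (log2 2.16) and the readthrough transcript Gm45935 (log2 1.73) had no matched position in the annotation, so a shared locus was not checked here. Gm45935 had means of 6.14 RPKM with vehicle and 22.7 RPKM with dex, close to the 6.77 and 22.9 RPKM of Setdb2. Reads may be shared, so the 3 symbols are not taken as separate observations. Likewise Jaml, an adhesion protein of leukocytes (0.485 ± 0.2 to 3.70 ± 1.87 RPKM), and Gm10684 (0.168 ± 0.0234 to 1.92 ± 1.07 RPKM) overlap on opposite strands, over 16.2% of the exon bases of Jaml. Gm10684 had means of 0.753 RPKM with S961 alone and 0.446 RPKM in unfed mice. It reached the filter on low values only through groups given dex, so its call is no support for a rise. Cyp2b10, a cytochrome P450 of drug metabolism with close paralogs, was at 2.45, 1.36, 4.62 and 4.18 RPKM with vehicle and at 8.19, 40.6, 19.8 and 10.1 RPKM with dex. Its rise of 2.30 (adjusted p = 0.013) lost its call without vehicle mouse 2 or dex mouse 2 (highest adjusted p = 0.058).

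**Figure D2:**
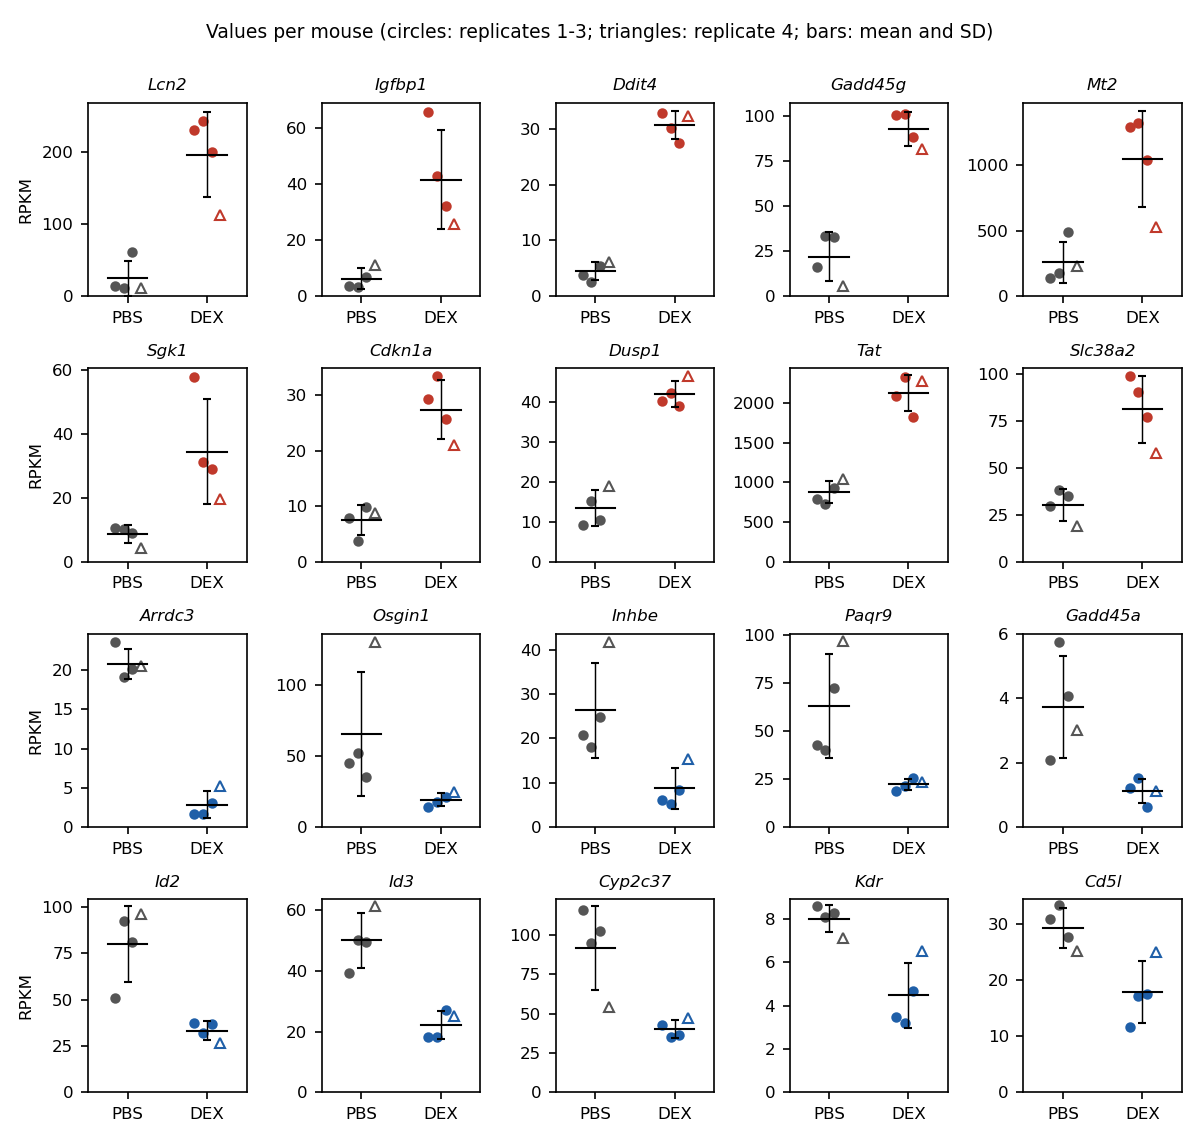
RPKM of 20 genes in each of the 8 mice (vertical axes, each from 0; PBS on the left and DEX on the right of each panel). Circles are replicates 1 to 3, open triangles replicate 4, and the bars give the mean and SD of the 4 mice. Ddit4 and Dusp1 show level dex groups, while Lcn2, Mt2 and Sgk1 show dex mouse 4 below the other dex mice.

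Part of the raised genes lie near places that GR occupied at ZT14 in mice left without food. The peaks used here are 10446 positions of 180 bases on mm9 where GR was found by chromatin immunoprecipitation in unfed livers that had not been injected, each library pooling the livers of 3 to 4 mice, so they do not show where GR sat after dex. For 6 of the 11 genes among the 20 largest rises that had such a peak with a full GRE within 50 kb, the nearest peak with a full GRE is printed whole below. It is given on the plus strand, with the GRE in capitals. Not printed are those of Lcn2, Igfbp1 and Gadd45b, which lie in introns of other genes, and those of Cyp2b10 and Mt1. The letters searched were GNACANNNTGTNC, which read the same on both strands. The peak of Mt2 (chr8:96695360-96695539) lies 1.1 kb upstream of the start and that of Cdkn1a (chr17:29231549-29231728) in its own intron, 3.7 kb downstream. Those of Fam107a (chr14:9142315-9142494, 8.1 kb downstream) and Bcl2l1 (chr2:152646129-152646308, 11.2 kb downstream) are intronic too, and those of Ddit4 (chr10:59436931-59437110, 22.5 kb upstream) and Dusp1 (chr17:26672190-26672369, 26.8 kb upstream) lie between genes. Nearer peaks without the GRE letters lie 0.6 kb from the start of Ddit4 and 4.1 kb from that of Dusp1.
Mt2: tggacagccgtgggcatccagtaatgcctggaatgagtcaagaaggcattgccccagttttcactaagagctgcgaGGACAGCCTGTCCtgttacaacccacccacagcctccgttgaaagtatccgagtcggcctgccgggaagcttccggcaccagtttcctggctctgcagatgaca
Cdkn1a: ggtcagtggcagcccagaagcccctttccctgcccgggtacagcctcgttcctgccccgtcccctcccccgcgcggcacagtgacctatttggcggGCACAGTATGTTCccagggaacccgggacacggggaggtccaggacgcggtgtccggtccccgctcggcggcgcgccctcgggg
Fam107a: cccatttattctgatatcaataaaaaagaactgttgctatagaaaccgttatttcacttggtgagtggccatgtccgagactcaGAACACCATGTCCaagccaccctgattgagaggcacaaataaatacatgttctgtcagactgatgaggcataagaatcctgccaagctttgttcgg
Bcl2l1: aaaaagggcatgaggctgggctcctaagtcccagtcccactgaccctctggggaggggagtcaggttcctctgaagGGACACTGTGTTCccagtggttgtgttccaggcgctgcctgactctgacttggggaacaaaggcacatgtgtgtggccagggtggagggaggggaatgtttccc
Ddit4: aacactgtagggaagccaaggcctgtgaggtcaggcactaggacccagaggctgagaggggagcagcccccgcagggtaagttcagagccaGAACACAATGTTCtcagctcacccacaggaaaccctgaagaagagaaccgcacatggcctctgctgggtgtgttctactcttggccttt
Dusp1: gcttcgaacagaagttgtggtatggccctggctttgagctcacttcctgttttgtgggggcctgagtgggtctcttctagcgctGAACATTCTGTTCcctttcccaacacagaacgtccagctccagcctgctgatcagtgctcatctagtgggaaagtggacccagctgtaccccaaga

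These 6 stretches show variants of the same pair of half-sites around a spacer of 3 bases. At Ddit4 and Dusp1 the half-sites read GAACA and TGTTC and at Mt2 GGACA and TGTCC, each pair being its own reverse complement. A match of letters is a description and does not show that GR acts there.

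Of the raised genes with a known position, 96 of 109 (88.1%) had a GR peak within 50 kb of their start, against 141 of 241 lowered genes (58.5%) and 48.2% of all genes tested. Expressed genes have more peaks: among those averaging 10 RPKM or more the share was 62.6%. The nearest peak lay at a median of 4.3 kb from raised genes, 28.4 kb from lowered genes and 54.6 kb from all genes tested. Within 20 kb the shares were 72.5%, 43.6% and 30.1%, and within 100 kb 93.6%, 69.7% and 65.1%. The GRE letters were in 42 of 311 peaks near raised genes (13.5%) and 12 of 303 near lowered genes (3.96%), against 7.8% of all GR peaks and 0.345% of windows of the same length 2 kb away. Among the 20 largest falls, 18 had a GR peak within 50 kb and 0 had one with the GRE letters. The share of all genes with a peak that holds the letters was not counted. This count and that of the largest rises above are therefore descriptions and no result about these genes. Exact binomial intervals (95%) on these shares, which cover counting only, are 80.5% to 93.5% for raised and 52.0% to 64.8% for lowered genes within 50 kb; neighbouring genes share peaks and are not independent. Sgk1 had none within 50 kb, the nearest being at 111 kb.

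**Figure D3:**
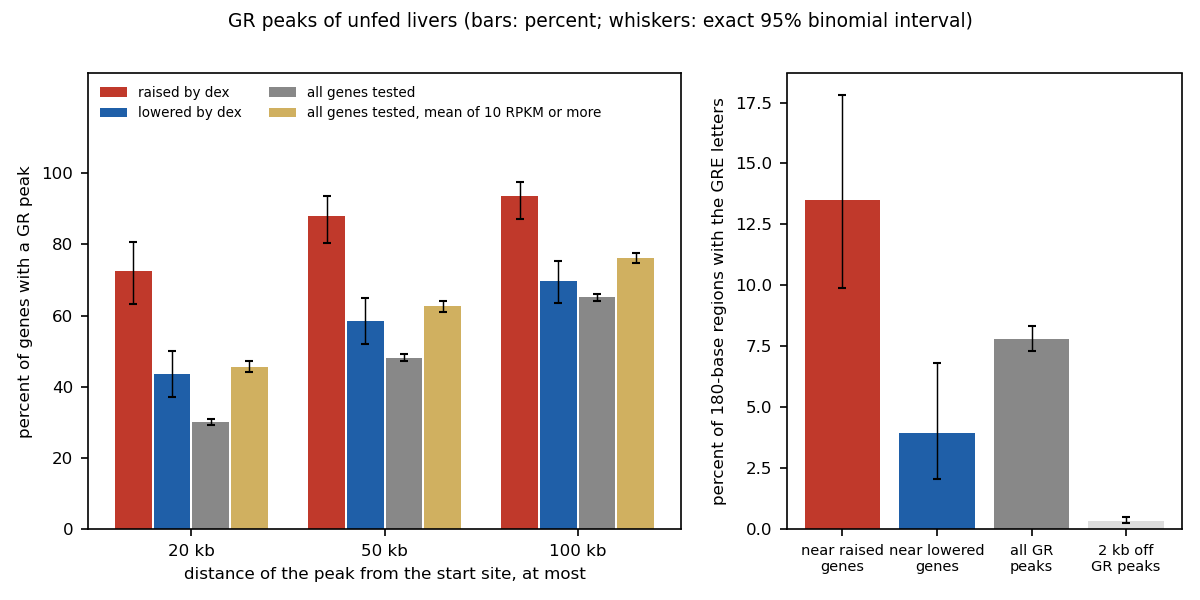
GR peaks of unfed livers near dex-responsive genes. The left panel gives the percent of genes with a peak within 20, 50 or 100 kb of the start site, for raised, lowered and all tested genes and for tested genes with a mean of 10 RPKM or more; the right panel gives the percent of 180-base peaks that hold the GRE letters, beside windows 2 kb away. Whiskers are exact 95% binomial intervals; raised genes have the highest bars at each distance, 88.1% within 50 kb, and peaks near them the highest share with the letters, 13.5%.

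The largest fall was that of Arrdc3 (chr13:81022645-81035296, plus strand), an arrestin-domain protein that sorts surface receptors for degradation. It was at 23.5, 19.1, 20.1 and 20.5 RPKM in vehicle mice and at 1.60, 1.62, 3.04 and 5.19 RPKM in dex mice, a log2 change of −2.79 (SE 0.34, adjusted p = 0.00016). The vehicle mice were nearly level and every dex mouse stood far below them. Osgin1, an inhibitor of growth that responds to oxidative stress, fell from 44.9, 52.4, 34.8 and 130 RPKM to 14.1, 17.2, 20.9 and 24.8 RPKM (log2 −1.57, SE 0.30, adjusted p = 0.0058). Inhbe, which encodes the hepatocyte-secreted activin E subunit, fell from 20.7, 18.0, 24.8 and 41.8 RPKM to 6.01, 5.16, 8.41 and 15.3 RPKM (log2 −1.59, SE 0.30, adjusted p = 0.0062). In both genes replicate 4 was the highest mouse of its group. Paqr9, a membrane protein of the progestin and adiponectin receptor family, was at 42.7, 40.2, 72.5 and 96.9 RPKM with vehicle and at 18.9, 21.2, 25.6 and 23.4 RPKM with dex (log2 −1.39, SE 0.22, adjusted p = 0.0015).

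The helix-loop-helix inhibitors Id2 and Id3, which block DNA binding by other factors and are known targets of BMP signalling, both fell. Id2 was at 50.9, 92.4, 81.0 and 96.1 RPKM with vehicle and at 37.7, 32.1, 37.1 and 26.5 RPKM with dex (log2 −1.22, SE 0.17, adjusted p = 0.00055). Id3 was at 39.2, 50.1, 49.5 and 61.3 RPKM with vehicle and at 18.2, 18.2, 27.0 and 25.1 RPKM with dex (log2 −1.17, SE 0.21, adjusted p = 0.0051). The Wnt receptor Fzd7 fell from 4.68 ± 1.22 to 1.82 ± 0.396 RPKM (log2 −1.14, adjusted p = 0.0015), the tight-junction protein Cldn1 from 5.80 ± 1.25 to 1.83 ± 0.275 RPKM (log2 −1.42, adjusted p = 0.0015) and the TNF-induced gene Tnfaip2 from 3.81 ± 1.36 to 1.03 ± 0.408 RPKM (log2 −1.48, adjusted p = 0.00061). The nuclear long noncoding RNA Neat1, the scaffold of paraspeckles, was at 26.1, 57.2, 58.0 and 26.6 RPKM with vehicle and at 10.8, 8.94, 18.5 and 10.3 RPKM with dex (log2 −1.70, SE 0.42, adjusted p = 0.031), but its call was lost after median-ratio scaling (adjusted p = 0.051) and in 5 of the 8 fits without 1 library, up to an adjusted p of 0.11.

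Cyp2c37, Mup1 and Nat8 fell unevenly across the mice. Cyp2c37, a cytochrome P450 that oxidizes arachidonic acid and has close paralogs, was at 116, 94.6, 103 and 54.0 RPKM with vehicle and at 42.7, 35.0, 36.3 and 47.4 RPKM with dex (log2 −1.13, SE 0.20, adjusted p = 0.0044). The drop was large in the first library series (log2 −1.45) and small in the second (−0.18), where the vehicle mouse was low. Mup1, a major urinary protein whose reads may be shared with many near-identical genes, was at 35.7, 44.1, 17.1 and 23.5 RPKM with vehicle and at 2.69, 0.781, 15.4 and 13.1 RPKM with dex. Dex mice 1 and 2 were far below the others, and the call (log2 −2.40, SE 0.58, adjusted p = 0.026) was lost without either of them or without vehicle mouse 1 or 2 (up to an adjusted p of 0.1). Nat8, an acetyltransferase, stood at 9.48, 11.1, 7.91 and 8.18 RPKM with vehicle and at 5.36, 1.33, 2.59 and 7.82 RPKM with dex (log2 −1.24, adjusted p = 0.04; 0.075 after median-ratio scaling), with no fall between the mice of the second series (−0.06).

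The other members of the 20 largest falls varied widely in level. The linker histone gene H1f2 fell from 26.7 ± 9.05 to 10.7 ± 2.76 RPKM (log2 −1.26, adjusted p = 0.0077) and Depdc7 from 11.4 ± 2.94 to 4.98 ± 1.57 RPKM (log2 −1.13, adjusted p = 0.0082). Clec7a, the beta-glucan receptor of myeloid cells, was at 2.10, 4.37, 2.09 and 1.73 RPKM with vehicle and at 0.560, 0.792, 0.994 and 0.646 RPKM with dex (log2 −1.24, SE 0.25, adjusted p = 0.0083). The chemokine gene Cxcl11 went from 1.16 ± 0.479 to 0.195 ± 0.155 RPKM (log2 −1.24, adjusted p = 0.025), with 41.7% of its exon bases under an antisense gene. Its means were 1.5 RPKM with S961 alone, 0.36 RPKM with dex and S961 and 0.32 RPKM in unfed mice. Cxcl11 reached the filter on low values only through the fed groups not given dex, so its call is no support for a fall. The pseudogene Adh6-ps1 (11.6 ± 3.70 to 4.28 ± 2.21 RPKM, adjusted p = 0.016) and 9030619P08Rik (5.42 ± 3.15 to 0.962 ± 0.915 RPKM, adjusted p = 0.017) complete the 20 largest falls. Fits without 1 library ended the calls of Cxcl11, Adh6-ps1 and 9030619P08Rik in 4 of 8 cases each, as that of Nat8 in 6.

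In whole liver, fewer cells of a type and less RNA per cell cannot be told apart. The 8 Kupffer cell (liver macrophage) markers summed to 136 to 149 RPKM in vehicle mice and to 69.6 to 129 RPKM in dex mice. These sums did not overlap, but the lowest vehicle sum and the highest dex sum lay close together. Over all genes tested 917 (8.15%) had the 4 dex mice below the 4 vehicle mice. The sums were not compared after median-ratio scaling. Among them Cd5l, secreted by these macrophages, fell (30.9, 33.3, 27.7 and 25.2 RPKM to 11.7, 17.2, 17.6 and 25 RPKM; log2 −0.74, adjusted p = 0.03, and 0.074 after median-ratio scaling). The other 7 did not pass, with log2 changes of −0.62 for Vsig4 (adjusted p = 0.073), −0.55 for Csf1r (0.09), −0.51 for Clec4f (0.18), −0.51 for Adgre1 (0.17), −0.22 for C1qb (0.67), −0.20 for C1qa (0.8) and 0.05 for Marco (0.97). With a term for the library series 3 of the 8 were lowered, Cd5l, Vsig4 (adjusted p = 0.022) and Clec4f (0.035). That term lowered 832 of all 11251 genes. The 7 sinusoidal endothelial markers summed to 94.1 to 107 RPKM with vehicle and to 68.8 to 91.0 RPKM with dex, and Kdr, Fcgr2b and Clec4g passed the test. Over all genes tested 2.19% were lowered. Kdr, the VEGF receptor of endothelium, went from 8.57, 8.07, 8.27 and 7.13 RPKM to 3.49, 3.21, 4.69 and 6.51 RPKM (log2 −0.82, SE 0.16, adjusted p = 0.007), and Fcgr2b from 25.9 ± 3.41 to 16.0 ± 4.12 RPKM (log2 −0.71, adjusted p = 0.01). Stab2 (log2 −0.56, adjusted p = 0.085), Pecam1 (−0.40, 0.067) and Stab1 (−0.18, 0.43) were lower without passing. Lyve1, another endothelial marker, had a log2 change of 0.63 (adjusted p = 0.083), so the list did not move as a whole. With the series term 5 of the 7 endothelial markers were lowered and 1, Lyve1, was raised, beside 832 lowered and 264 raised of all 11251 genes. The calls of Cd5l and Clec4g were each lost in 6 of the 8 fits without 1 library (up to adjusted p of 0.12 and 0.13), and after median-ratio scaling. Stellate cell (0 of 5 tested), cholangiocyte (0 of 2), red blood cell (0 of 5), neutrophil (0 of 2), B cell (0 of 1) and pancreas or fat markers (0 of 2) had no call, and the 10 T and NK cell markers together stayed at 2.58 RPKM or less in every mouse, with none tested. What part these cell types had in the lowered genes was not tested.

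Of 312 genes in 20 lists of liver pathways, 300 were tested, and dex raised 28 and lowered 5 of them, beside 1.00% raised and 2.19% lowered over all genes. The lowered count is below what that share would give, so it is no result about the lists. Without vehicle mouse 2 or without dex mouse 2 the raised members numbered 18, and the lowered members ranged from 2 (without dex mouse 1 or 2) to 11 (without dex mouse 4), with 3 without vehicle mouse 2 and 9 without dex mouse 3. The classic GR targets moved most: 12 of 25 rose and 0 fell, with a median log2 fold change of 0.77 against −0.10 over all genes. The lists were chosen with earlier results of these data known, so this rank is a description only. Besides Lcn2, Igfbp1, Ddit4, Sgk1, Mt1, Mt2, Cdkn1a and Dusp1 these were Tat, Lpin1, Tsc22d3 and Sult1e1. Tsc22d3, which encodes the glucocorticoid-induced leucine zipper GILZ, was at 52.2, 36.3, 40.1 and 55.1 RPKM with vehicle and at 59.6, 68.7, 81.4 and 143 RPKM with dex (log2 0.87, SE 0.21, adjusted p = 0.027). Lpin1, a phosphatidate phosphatase of lipid synthesis, was at 171, 157, 288 and 97.4 RPKM with vehicle and at 329, 336, 347 and 263 RPKM with dex, so that vehicle mouse 3 exceeded dex mouse 4 (log2 0.93, SE 0.22, adjusted p = 0.026). Well-known targets that did not pass were Fkbp5, a co-chaperone of GR (60.8 ± 20.6 and 87.5 ± 11.2 RPKM, log2 0.57, adjusted p = 0.083), Per1, a clock gene (log2 0.58, adjusted p = 0.28), Zbtb16 (log2 0.46, adjusted p = 0.31) and Klf9 (log2 0.13, adjusted p = 0.63). Fits without 1 library ended the call of Lpin1 in 6 of 8 cases (up to an adjusted p of 0.083), of Tsc22d3 in 2 (without vehicle mouse 2 or 3, 0.098) and of the low gene Sult1e1 in 7 (0.13). With a term for the library series 19 of the 25 rose, and that term raised 264 of all 11251 genes tested.

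Some genes of amino acid use rose, while most of gluconeogenesis did not pass. In amino acid breakdown 5 of 25 genes rose and 0 fell (median 0.23). Tat, tyrosine aminotransferase, was at 796, 730, 933 and 1040 RPKM with vehicle and at 2096, 2331, 1830 and 2285 RPKM with dex (log2 1.29, SE 0.22, adjusted p = 0.003), a rise seen in all 4 mice alike. Sds, serine dehydratase, went from 116, 115, 173 and 127 RPKM to 433, 525, 368 and 192 RPKM (log2 1.44, SE 0.25, adjusted p = 0.0035), with antisense genes over 31.1% of its exon bases. In contrast, Got1, the cytosolic aspartate aminotransferase (log2 1.07, adjusted p = 0.03), rose in the first library series (1.54) and had the opposite sign in the second (−0.33), where dex mouse 4 was at 183 RPKM and vehicle mouse 4 at 231 RPKM. Sdsl (log2 0.98, adjusted p = 0.029) and Agxt, which handles glyoxylate (log2 0.73, adjusted p = 0.042), also differed little in the second series (0.23 and −0.02). The calls of Got1, Sdsl and Agxt were lost in 5, 5 and 6 of the 8 fits without 1 library.

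Of 9 tested genes in the list of amino acid transporters, which also holds the mitochondrial ATP carrier Slc25a25, 3 rose and 0 fell (median 0.29). Slc38a2, a sodium-coupled neutral amino acid transporter, was at 29.5, 38.4, 34.8 and 18.7 RPKM with vehicle and at 99.1, 90.2, 77.1 and 58.0 RPKM with dex (log2 1.42, SE 0.26, adjusted p = 0.0051). Slc7a2, a transporter of arginine and lysine, rose from 94.6 ± 12.8 to 181 ± 35.5 RPKM (log2 0.92, adjusted p = 0.0024), and Slc25a25 from 42.4 ± 2.87 to 80.9 ± 17.1 RPKM (log2 0.90, adjusted p = 0.009). In the urea cycle (7 genes, median 0.31) the ornithine carrier Slc25a15 rose from 118, 122, 86.7 and 90.7 RPKM to 230, 229, 195 and 169 RPKM (log2 0.98, SE 0.15, adjusted p = 0.001). Nags, whose product makes the activator of the cycle, fell from 27.3 ± 3.96 to 20.5 ± 1.44 RPKM (log2 −0.40, adjusted p = 0.025, but 0.12 after median-ratio scaling and up to 0.093 without 1 library). Ass1 had a log2 change of 0.56 (adjusted p = 0.057) and Cps1, the first enzyme, of −0.04 (adjusted p = 0.91).

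Of 11 gluconeogenesis genes 1 rose, Ppargc1a, the coactivator PGC-1alpha that drives this pathway in fasting, and 0 fell (median 0.18). Ppargc1a was at 2.12, 2.34, 1.81 and 2.09 RPKM with vehicle and at 4.64, 5.13, 4.77 and 3.64 RPKM with dex (log2 0.96, SE 0.15, adjusted p = 0.0015). Pck1, phosphoenolpyruvate carboxykinase, was at 579, 643, 690 and 731 RPKM with vehicle and at 985, 1236, 949 and 955 RPKM with dex. Although the groups did not overlap, its log2 change of 0.64 (SE 0.19) had an adjusted p of 0.074; it passed with the series term (0.04). G6pc, glucose-6-phosphatase, was at 72.0, 30, 80.6 and 101 RPKM with vehicle and at 44.4, 68.5, 62.3 and 40.1 RPKM with dex (log2 −0.30, SE 0.33, adjusted p = 0.68), with a sign that changed to 0.04 in the first series alone.

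Lipid pathways showed little that passed. Fatty acid synthesis (0 of 15 raised, 0 lowered, median −0.02) and cholesterol synthesis (0 of 17, median −0.10) had no call, with Fasn, fatty acid synthase, at 35.9 and 31.1 RPKM in the vehicle and dex means (log2 −0.21, adjusted p = 0.41). In fatty acid oxidation and ketogenesis 1 of 20 genes fell (median −0.14), the pantetheinase Vnn1 (15.8 ± 2.52 to 8.56 ± 1.90 RPKM, log2 −0.86, adjusted p = 0.025, but 0.061 after median-ratio scaling and up to 0.1 without 1 library). Bile acid synthesis and transport had 0 calls among 13 genes (median −0.34), and 4 lowered with the series term, which lowered 832 of all 11251 genes. Its lowest value was that of Cyp7b1, the oxysterol hydroxylase of the alternative bile acid pathway (202, 356, 207 and 285 RPKM with vehicle; 98.9, 30.6, 158 and 118 RPKM with dex; log2 −1.55, SE 0.42, adjusted p = 0.05). Its 4 dex mice were all below the vehicle mice, though the value lay just above the threshold.

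**Figure D4:**
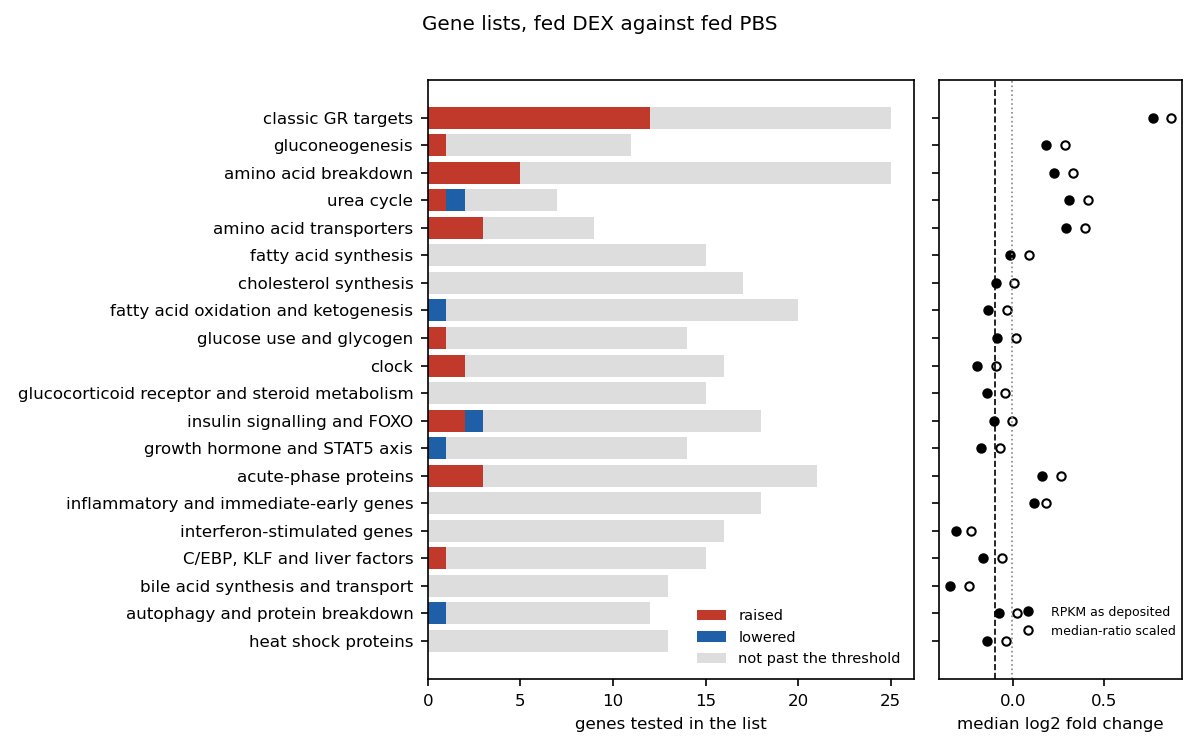
Genes of each of the 20 lists by outcome with dex. The left panel counts the genes tested that were raised (red), lowered (blue) or not past the threshold (grey); the right panel gives the median log2 fold change of each list with RPKM as deposited (filled) and after median-ratio scaling (open), with the medians over all genes as dashed (−0.10) and dotted lines. The classic GR targets stand at a median of 0.77 with 12 of 25 raised; every other list lies between −0.34 and 0.31 as deposited.

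Glucose use and glycogen had 1 call among 14 genes (median −0.09), Ppp1r3c, a subunit that targets a phosphatase to glycogen. Its values were 42.8, 20.1, 39.2 and 11.0 RPKM with vehicle and 43.2, 57.9, 64.0 and 103 RPKM with dex (log2 1.34, SE 0.32, adjusted p = 0.026), and without both mice of the second series it did not pass (log2 0.74, adjusted p = 0.11). The call was also lost in 4 of the 8 fits that left out 1 library, those without vehicle mouse 2 or 4 or dex mouse 2 or 4 (up to an adjusted p of 0.085). Among 16 clock genes 2 rose and 0 fell (median −0.20). Ciart, a repressor of the clock also called Chrono, was at 10.2, 9.61, 14.4 and 10.4 RPKM with vehicle and at 21.7, 24.7, 22.4 and 22.4 RPKM with dex (log2 1.01, SE 0.15, adjusted p = 0.0012). Cry2, a cryptochrome, went from 6.49, 6.98, 7.82 and 9.33 RPKM to 16.2, 14.5, 12.5 and 12 RPKM (log2 0.81, SE 0.13, adjusted p = 0.0022). Both genes had nearly level groups, while Nr1d1, the REV-ERB alpha repressor, had a log2 change of −1.01 that did not pass (adjusted p = 0.14, but 0.02 with the series term).

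In insulin signalling and FOXO (18 genes, median −0.10), Igfbp1 and Foxo1 rose and Gadd45a fell. Foxo1, the transcription factor that insulin switches off, was at 10.3, 10.6, 11.3 and 10.1 RPKM with vehicle and at 14.8, 13.1, 15.0 and 14.3 RPKM with dex, a small change with tight groups (log2 0.42, SE 0.09, adjusted p = 0.012). Acute-phase proteins, made by the liver in inflammation, had 3 rises and 0 falls among 21 (median 0.16): Lcn2, Saa3 (5.04 ± 3.00 to 13.0 ± 3.14 RPKM, log2 1.39, adjusted p = 0.024) and haptoglobin, Hp (1604 ± 121 to 2334 ± 210 RPKM, log2 0.54, adjusted p = 0.037). Saa1 and Saa2, serum amyloid A genes with closely similar sequences, had log2 changes of 1.48 and 1.97 but wide spread (adjusted p = 0.25 and 0.17). The calls of Saa3 and Hp were lost in 5 and 7 of the 8 fits without 1 library. Klf15, a transcription factor of amino acid catabolism, was the 1 rise among 15 C/EBP, KLF and liver factors (median −0.17), from 46.0, 43.8, 44.4 and 64.1 RPKM to 77.7, 95.9, 75.7 and 107 RPKM (log2 0.84, SE 0.16, adjusted p = 0.0064).

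The growth hormone and STAT5 axis (14 genes, median −0.17) had Mup1 as its 1 fall, and autophagy and protein breakdown (12 genes, median −0.07) had Depdc7. GR and steroid metabolism (0 of 15, median −0.14), inflammatory and immediate-early genes (0 of 18, median 0.12), interferon-stimulated genes (0 of 16, median −0.32) and heat shock proteins (0 of 13, median −0.14) had no call in either direction. Nr3c1, which encodes GR itself, had means of 19.2 RPKM with vehicle and 14.8 RPKM with dex (log2 −0.35, adjusted p = 0.4). Nfkbia, an inhibitor of NF-kappaB that GR is known to induce, had a log2 change of 0.77 and an adjusted p of 0.052.

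The leading genes were also measured with the insulin receptor blocked. Dex given with S961, against S961 alone, raised 117 genes (1.04%) and lowered 98 (0.871%), in libraries that are not part of the comparison above although they enter the same fit. After median-ratio scaling these counts were 173 and 64. Of the 113 genes raised by dex alone 62 (54.9%) were also raised there and 0 were lowered, with a median log2 fold change of 0.77. Of the 246 lowered genes 52 (21.1%) were lowered and 0 raised, with a median of −0.33. Over all genes tested the median there was −0.06. These shares moved with single libraries, the second to 36.7% without dex mouse 1 and 38.4% without dex mouse 2, and were 32.6% and 10.7% in the first library series alone. Igfbp1 went from 19.9 ± 17.0 to 112 ± 60.1 RPKM (log2 2.70, adjusted p = 0.012), Ddit4 from 3.52 ± 1.51 to 32.8 ± 9.72 RPKM (log2 3.07, adjusted p = 1.3e-05), and Arrdc3 from 30.1 ± 20.7 to 5.60 ± 1.36 RPKM (log2 −2.13, adjusted p = 0.0015).

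The difference between the dex effects with and without S961, tested as an interaction in the fit of all 20 injected mice, passed for 0 genes (limma; 513 at an unadjusted p under 0.05). Without dex mouse 4 of the fed DEX group 4 genes passed, Arrdc2, Ces1b, Cyp2a4 and Glul, named here because their number is small and chosen after their values were seen; Cyp2a4 reached the filter on low values only through the dex mice. Among the named genes the widest gaps were in Cyp2a4 (difference −4.29), Mup1 (2.42) and Tff3 (−2.38), all with an adjusted p of 1. Ppp1r3c rose more in the presence of S961 (12.3 ± 3.12 to 104 ± 14.5 RPKM, log2 3.06) than without it, a difference of 1.71 (unadjusted p = 0.0014, adjusted p = 1). Agxt, by contrast, had a log2 change of 0.04 with S961 (difference −0.69, adjusted p = 1).

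Genetic loss of GR gave a set of values from libraries that share none with the dex comparison. Nr3c1 RNA was at 12.8, 14.5, 13.2 and 16.2 RPKM with AAV-GFP and at 3.93, 4.23, 4.14 and 5.35 RPKM with AAV-CRE (log2 −1.58, SE 0.12, adjusted p = 6.8e-05), so part of the transcript remained in these whole livers. Of the genes tested with dex 11095 could be tested there, and loss of GR raised 503 (4.53%) and lowered 256 (2.31%). Over all genes of that fit 519 rose and 259 fell, a split that turned to 294 and 369 after median-ratio scaling. The 519 became 224 without GFP mouse 2, 256 without CRE mouse 1, 219 without CRE mouse 2 and 310 without CRE mouse 3, and the 259 became 172 without CRE mouse 1 or 2. Of the 108 dex-raised genes among them 42 (38.9%) were lowered on loss of GR and 3 raised, with a median log2 change of −0.52. Of the 246 dex-lowered genes 53 (21.5%) were raised and 4 lowered (1.63%), with a median of 0.26. The median over the 11095 genes was 0.08. Those mice were unfed and received no dex, so the comparison differs from dex in feeding and in ligand.

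The largest reductions on loss of GR among the dex-raised genes named here were those of Lpin1 (log2 −4.50, adjusted p = 6.2e-07) and Gadd45g (−3.64, adjusted p = 8.8e-05). Fam107a (−2.66, adjusted p = 0.0017), Igfbp1 (−2.63, adjusted p = 0.0019), Tff3 (−2.58, adjusted p = 0.03) and Ddit4 (−2.31, adjusted p = 0.0045) followed. Fkbp5 and Zbtb16, which dex did not raise past the threshold in fed mice, were lowered by loss of GR (−2.64, adjusted p = 3.8e-05, and −3.46, adjusted p = 6.6e-06). In contrast, Lcn2 (−0.46, adjusted p = 0.51), Gadd45b (0.07, adjusted p = 0.96) and Sgk1 (0.08, adjusted p = 0.84) rose with dex without a call on loss of GR. So did Mt1, Mt2, Dusp1 and Cdkn1a, at −1.11, −1.23, −1.25 and −2.15 (limma adjusted p = 0.23, 0.13, 0.095 and 0.08). Cyp2b10 (0.37, adjusted p = 0.78) and Ppargc1a (−0.59, adjusted p = 0.15) had no call either, and Agxt was raised (0.46, adjusted p = 0.032). Among lowered genes Arrdc3 (1.95, adjusted p = 0.0099), Id3 (1.92, adjusted p = 0.00016), Id2 (1.72, adjusted p = 0.00071), Paqr9 (1.72, adjusted p = 0.00018) and Gadd45a (1.63, adjusted p = 0.0062) were higher after loss of GR. Lowered genes without a call there included Neat1 (0.10, limma adjusted p = 0.89), Clec7a (−0.10, adjusted p = 0.92) and H1f2 (0.46, adjusted p = 0.52). Of the 25 classic GR targets 15 were lowered and 0 raised, beside 2.31% lowered and 4.53% raised over the 11095 genes.

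**Figure D5:**
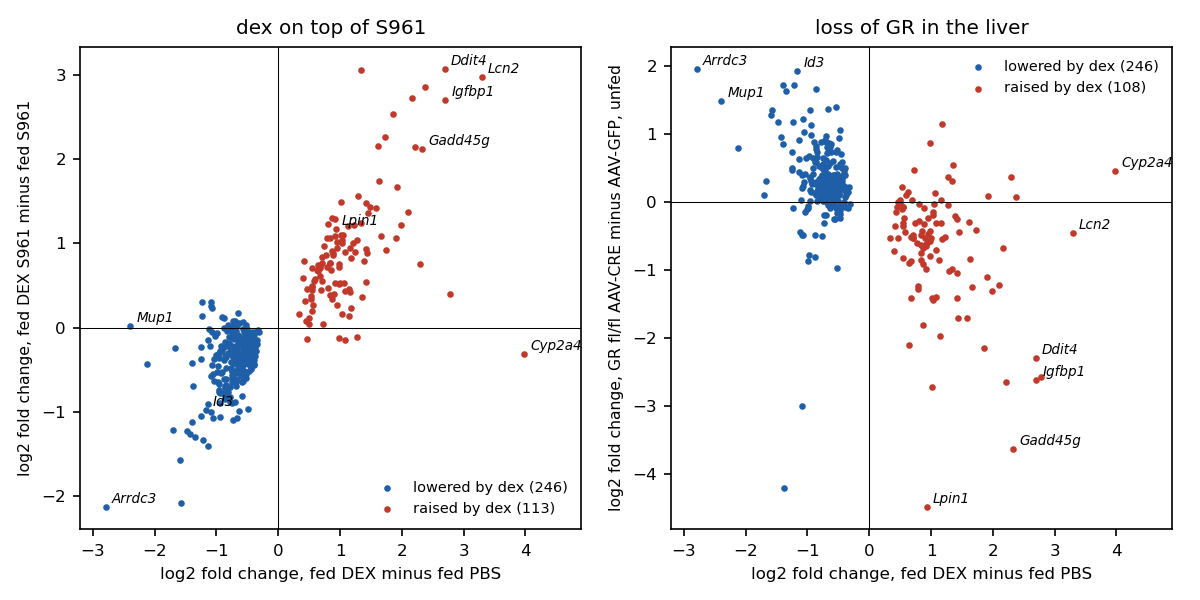
The genes raised (red) and lowered (blue) by dex in fed mice, plotted by their log2 fold change there (horizontal axes) against that of dex on top of S961 (left, 113 and 246 genes) and of loss of GR in unfed livers (right, 108 and 246 genes). In the left panel 108 red points lie above 0 and 228 blue points below it, with Cyp2a4 and Mup1 off these sides. Over all 11251 genes tested 4041 lie above 0 there and 7209 below it. In the right panel the red points have a median of −0.52 and the blue points of 0.26, against 0.08 over all genes.

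Dex and the meal share the fed PBS mice, so their values are given side by side only. Ddit4 was at 17.9 ± 6.20 RPKM in unfed vehicle mice, 4.51 ± 1.59 in fed vehicle mice and 30.7 ± 2.45 in fed dex mice. For Igfbp1 the 3 levels were 119 ± 67.8, 6.25 ± 3.68 and 41.6 ± 17.6 RPKM, for Tat 1839 ± 118, 875 ± 139 and 2135 ± 228 RPKM, and for Pck1 1345 ± 165, 661 ± 65.4 and 1031 ± 137 RPKM (SD, n = 4 each). Dex thus took Ddit4 above its unfed level and left Igfbp1 below it, without a test of either difference. Arrdc3 was at 8.51 ± 1.41, 20.8 ± 1.90 and 2.86 ± 1.69 RPKM, and Gadd45a at 0.955 ± 0.292, 3.73 ± 1.57 and 1.12 ± 0.377 RPKM. G6pc, at 211 ± 78.9, 70.9 ± 29.9 and 53.8 ± 13.7 RPKM, had a low level in fed mice with or without dex.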

How the data were processed

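Per the labels and the study's methods, poly(A)-enriched liver RNA of single mice was sequenced, reads were aligned to mm9, and the authors normalized them to RPKM per RefSeq transcript. The aligner named for the series in the submitters' processing notes is STAR, beside HOMER and DESeq2; whether counting used strand is not given in the sources used here. The deposited table holds 54 RNA libraries and 35707 RefSeq identifiers, of which 300 without a symbol were left out, and the best-expressed transcript of each symbol was used. Depth is known only relative to other libraries, from the smallest steps of the RPKM values. The GR peak file of the authors gives positions only, without a score. Samples were grouped by their labels.

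Values were taken as log2(RPKM + 0.5). Genes averaging 0.5 RPKM or more across the 20 injected libraries were fitted with limma 3.58.1 (R 4.3.3) with a variance trend, 5 groups of 4 in 1 fit, no block, and Benjamini-Hochberg adjustment at a threshold of 0.05. The 8 GR fl/fl libraries were fitted apart in the same way. All tests were two-sided. Named genes are the 20 largest rises and 20 largest falls past the threshold whose groups did not overlap, the members of the gene lists, and Nr3c1; marker genes and others are named as the text says. The comparison, the genes and the lists were chosen with earlier results of these data known. Positions are from the GENCODE annotation of mm9, with 394 tested genes not matched. Scripts for the tests were tested on simulated data. Sequences were read from the mm9 genome, and peak and figure work used Python 3.11.15. Alternatives were other pseudocounts, filters, scalings, identifiers and sets of libraries, a replicate block and a library-series term; the last combined with median-ratio scaling was chosen after seeing the data. Some genes that meet these rules are not reported here. H3K27Ac, DNase and FOXO1 data were not used here.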

Additional observations from a re-analysis of the deposited data

Results flagged for a closer look

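In groups of 4, a mouse was singled out where its gap to the nearest other mouse, on the log2(RPKM + 0.5) scale, took a larger share of the whole range of the group than Dixon's 95% critical value allows. Of 162 groups over 81 genes 6 were singled out, and chance gives about 1 in 20.

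For Lcn2, vehicle mouse 3 was at 61.6 RPKM while the other vehicle mice were at 11.8 to 14.3 RPKM. For Klf15, vehicle mouse 4, of the second library series, was at 64.1 RPKM beside 43.8 to 46 RPKM in the others. Dex mouse 2, the shallowest library, stood apart in Pck1, with 1236 RPKM beside 949 to 985 RPKM, and in Mup3, a major urinary protein, with 3814 RPKM beside 5835 to 5950 RPKM. Dex mouse 4, of the second library series, stood apart in Zbtb16, with 19.8 RPKM beside 11.4 to 11.9 RPKM, and in Klf9, with 33.1 RPKM beside 27.9 to 28.3 RPKM.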

How the results depend on the processing

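Pseudocounts of 0.1 and 1 RPKM, a filter at a mean of 2 RPKM and a fit without the variance trend kept every count and share listed here within 1.5 times its value. The 113 raised genes became 181 with all RefSeq identifiers, 47 with the 2 compared groups alone, 264 with a library-series term, 233 in replicates 1 to 3 alone and 437 with the series term and median-ratio scaling, the last chosen after seeing the data. Without 1 library they ranged from 72 to 168. The 246 lowered genes became 148 without a filter on low values, 107 with median-ratio scaling, 122 with quantile normalization, 40 with the 2 groups alone, 832 with the series term and 587 in replicates 1 to 3 alone, and ranged from 86 to 369 without 1 library. The 28 raised list members became 17 without a filter, 14 with the 2 groups alone, 43 with the series term and 53 with series term and median-ratio scaling (18 to 37 without 1 library). The 5 lowered members became 3 with median-ratio scaling, 0 with the 2 groups alone (limma), 21 with the series term, 23 in replicates 1 to 3 alone and 11 with series term and median-ratio scaling (2 to 11 without 1 library). The interaction stayed at 0 genes in every alternative except without dex mouse 4 (0 to 4).

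Dex with S961 raised 117 genes, which became 72 without a filter, 188 with all identifiers, 215 with the series term and 287 with series term and median-ratio scaling (107 to 140 without 1 of the 8 fed DEX and fed PBS libraries; the S961 libraries were not left out). It lowered 98, which became 56, 64 with median-ratio scaling, 65 with quantile normalization, 280 with the series term and 180 with both (76 to 137). The share of dex-raised genes lowered on loss of GR, 38.9%, became 48.8% with the 2 groups alone, 29.1% in replicates 1 to 3 alone and 24.4% with series term and median-ratio scaling (33.1% to 45.6% without 1 library). The share of dex-lowered genes raised there, 21.5%, became 29.9% with median-ratio scaling, 28.7% with quantile normalization, 35% with the 2 groups alone and 15.5% with the series term (18.5% to 31.4%). The share of dex-raised genes raised with S961, 54.9%, became 32.6% in replicates 1 to 3 alone and 39.1% with series term and median-ratio scaling (40.5% to 72%), and that of dex-lowered genes lowered with S961, 21.1%, became 29.9% after median-ratio scaling, 29.5% after quantile normalization and 10.7% in replicates 1 to 3 alone (18.9% to 38.4%). Loss of GR raised 519 genes, which became 101 without a filter, 294 after median-ratio scaling and 337 after quantile normalization (219 to 497 without 1 library), and lowered 259, which became 74 without a filter (172 to 238). Raised genes with a GR peak went from 88.1% within 50 kb to 72.5% within 20 kb and 93.6% within 100 kb, and lowered genes from 58.5% to 43.6% and 69.7%. G6pc changed sign, to a log2 change of 0.039, in replicates 1 to 3 alone. The cause of these moves was not tested.

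Replicate numbers were not treated as pairing the mice: same-numbered deviations from the group means correlated at 0.19, 0.02, 0.04 and 0.49 over genes for numbers 1 to 4, and vehicle mice 2 and 3 correlated best with dex mice of other numbers. With a replicate block dex raised 240 genes and lowered 728, dex with S961 raised 204 and lowered 264, 16 list members were lowered, and the share of dex-lowered genes raised on loss of GR was 16%. In the GR fl/fl libraries the block gave 380 raised and 236 lowered.

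Of the 67 called genes chosen for naming, the block and the series term kept 67, pseudocount 0.1 kept 66 (without Cyp2a4), median-ratio scaling 61, quantile normalization 62, replicates 1 to 3 alone 65, no filter 44 and the 2 groups alone 29. Values rest on RPKM, so read numbers and counting error are unknown. Relative depth ran from 0.549 to 1.06 among the 8 libraries, and changes of genes near 0.5 RPKM are compressed by the pseudocount.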

Other observations

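Genes known as sex-biased in mouse liver were uneven among the dex mice. The list was written after values of some of its genes had been seen, so the values are given without a test of the list. All 20 injected mice had the RNA pattern of males, with Xist at 0.056 RPKM or less and the Y-linked genes Ddx3y and Eif2s3y expressed. Cyp2a4, a steroid hydroxylase higher in females and with reads that may be shared with Cyp2a5, was at 0.447, 0.4, 0.468 and 0.255 RPKM in vehicle mice 1 to 4 and at 7.62, 165, 44.9 and 0.135 RPKM in dex mice 1 to 4. It was at most 0.77 RPKM in the other 16 injected mice, those without dex alone. It reached the filter on low values only through the dex mice, so its call is no support for a rise. Cux2, a transcription factor of female liver, was at 0.169, 5.33, 2.92 and 0 RPKM in dex mice 1 to 4, against at most 0.82 RPKM in the other 16. Cyp2b9, another female-biased cytochrome P450, was at 6.76 RPKM in dex mouse 2 and 2.18 RPKM in dex mouse 3, against at most 1.79 RPKM in the other 16. Prlr, the prolactin receptor, was at 33.3, 19.3, 29.1 and 27.0 RPKM with vehicle and at 40.1, 51.4, 40 and 21.9 RPKM with dex (adjusted p = 0.25). A1bg, Hao2 and Sult3a1 stayed below 1 RPKM in all 8 mice and were not tested.

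Among male-biased genes Cyp4a12a and Cyp2d9, both cytochromes P450, fell. Cyp4a12a was at 133, 114, 125 and 136 RPKM with vehicle and at 84.8, 38.6, 63.7 and 98.3 RPKM with dex (log2 −0.91, adjusted p = 0.035), and Cyp2d9 had a log2 change of −0.64 (adjusted p = 0.039). Hsd3b5, a steroid reductase of male liver, was at 43.9, 49.2, 59.0 and 39.4 RPKM with vehicle and at 23.6, 10.3, 29.3 and 21.3 RPKM with dex, without overlap but not past the threshold (adjusted p = 0.076). Dex mouse 2, which had the highest Cyp2a4 and Cux2, had the lowest Mup1 (0.781 RPKM), Cyp7b1 (30.6 RPKM), Mup3 (3814 RPKM), Cyp4a12a (38.6 RPKM), Cyp2d9 (212 RPKM), Elovl3 (7.88 RPKM) and Slco1a1 (56.2 RPKM) of the 20 injected mice. In Mup20 (1588 RPKM) and Hsd3b5 (10.3 RPKM) it was not the lowest, since a mouse among the other 16 had 1345 RPKM of Mup20 and another mouse 10.0 RPKM of Hsd3b5. With dex and S961 together Cyp2a4 was at 0.204, 0.77, 0.329 and 0.145 RPKM, and Mup1 at 27.8, 15.5, 18.8 and 14.1 RPKM. Library depth also differed, dex mouse 2 having the shallowest library of the 8, and its part in these values was not tested.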
